A study of Mus musculus with 18 samples.

Results

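Wnt signalling genes were followed in cultured mouse neurospheres, which are floating clusters of neural stem and progenitor cells, before and after differentiation. The set was named as 10 genes, made up of the ligands Wnt7a and Wnt7b, the transcription factor genes Lef1 and Tcf7, the pathway targets and inhibitors Axin2 and Nkd1, and the secreted antagonists Sfrp1, Sfrp2, Wif1 and Dkk3. Of these, 9 had a probe set (a group of array probes read as 1 value) whose only listed symbol was theirs, out of 22180 genes in all. All 9 were among the 19016 genes tested. The signal of Tcf7 was not analysed here. Where a gene had several probe sets, the one with the highest mean over the arrays was used, and the choice drew on no difference between groups.

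Total RNA was measured on 18 arrays, 3 for each of 6 groups. Some neurospheres were wild type, some carried a knockout of Pcdh19, and some were a mosaic made by mixing cells of both genotypes, and each kind was sampled at day 0 and at day 4 of differentiation. All samples were labelled female. The protein made from Pcdh19, a gene on the X chromosome, is a protocadherin, an adhesion molecule of the cell surface. The design text describes the replicates as technical, and no label ties them to separate animals or cultures, so every p-value measures the spread between these arrays alone. No source used here gives the age or strain of the mice, the allele, or the proportion of each genotype in the mosaic.

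In the canonical Wnt pathway, a secreted Wnt protein binds a Frizzled receptor and an Lrp co-receptor, beta-catenin escapes destruction, and it joins Tcf and Lef proteins on DNA to switch on target genes. Axin2 and Nkd1 are such targets and also damp the signal inside the cell, while Sfrp and Wif1 proteins bind Wnt ligands outside it. In the developing brain the pathway is known for its part in progenitor proliferation and regional patterning, and it is also known to hold back the maturation of oligodendrocyte precursors.

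The deposited values are log2 signals, and array medians lay between 4.85 and 4.99. Pcdh19 checked the labels in part: all knockout arrays lay below all wild type arrays on both days, at 5.39 to 5.68 against 6.66 to 6.85 at day 0 and 5.53 to 5.86 against 6.81 to 6.98 at day 4. Over all genes these differences did not pass (limma, adjusted p = 0.855 and 0.195), and whether the probe set lies in the deleted stretch is not known. Mosaic arrays measured 6.03, 6.31 and 5.65 at day 0, where replicate 3 lay within the knockout range. At day 4 they measured 6.54, 7.09 and 5.52, with replicate 2 above all wild type arrays of that day and replicate 3 level with the lowest knockout array, so differentiation in the mosaic is also given without replicate 2 or 3 of day 4 for the genes of the set. Values without day 0 replicate 3 are given only for Wnt7a, Axin2 and Sfrp2, whose mosaic calls were lost without it. Cell type markers moved with the day. Of 8 neural stem and progenitor markers, 4 fell in each genotype while 1, 2 and 1 rose in the wild type, the knockout and the mosaic (62.5%, 75% and 62.5% called, beside 33.6%, 27.4% and 26.2% of all genes), with a summed linear signal of 21187 to 23597 at day 0 and of 15941 to 18062 at day 4. All 7 oligodendrocyte markers rose in each genotype, and their sum was 537 to 747 at day 0 and 4725 to 7527 at day 4. The sum over 8 astrocyte markers was 5833 to 8248 at day 0 and 10864 to 12808 at day 4, and that over 8 neuron markers 2855 to 3296 and 4292 to 6289. Such sums weigh bright genes most, and not every marker rose. Log2 signal of the astrocyte marker Gfap was 7.59 to 8.77 at day 0 and 6.57 to 7.32 at day 4. That of the neuron marker Elavl4 was 5.24 to 5.59 and then 4.52 to 5.37. Sums for 6 oligodendrocyte progenitor markers were 7163 to 7981 at day 0 and 10865 to 12645 at day 4. Among them Cspg4 had log2 signals of 6.71 to 7.19 and then 6.49 to 7.07. Sums for 6 microglial and 6 endothelial markers lay at 128 to 171 and 134 to 170 over both days. Those for 6 fibroblast and mural markers were 248 to 370 and then 345 to 416. In log2 signal, Pdgfrb of that list rose (4.57 to 5.81, then 7.28 to 7.72), while Acta2 was 6.77 to 7.83 and then 6.04 to 7.08. The part of this change in cell types in the results on differentiation was not tested, and in such bulk RNA fewer cells of a type and less RNA per cell cannot be told apart.

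Differentiation changed 4 of the 9 measured genes in wild type cultures, 5 in knockout and 5 in mosaic cultures. Calls were made where limma's moderated test over all 19016 genes gave an adjusted p below 0.05. By that rule 33.6% of all genes tested were called in wild type (17.2% higher, 16.3% lower), 27.4% in knockout (15% higher, 12.4% lower) and 26.2% in mosaic cultures (14.4% higher, 11.9% lower). The genes of the set whose arrays did not overlap between the days were the same 4, 5 and 5, beside 48.9%, 39.2% and 38.1% of all genes. Wnt7a and Sfrp1 rose and Dkk3 fell in all 3 kinds of culture. The Axin2 probe set used fell in wild type and mosaic cultures, though its other probe set rose in wild type and the mean of both did not pass in either. Sfrp2 fell in knockout and mosaic cultures and Nkd1 in knockout cultures, while Wnt7b, Lef1 and Wif1 were called in none. The median log2 fold change of the 9 genes was -0.02, -0.06 and -0.16 in wild type, knockout and mosaic cultures, beside 0.09, 0.02 and 0.02 over all genes tested. Calls of 1 direction in all 3 kinds of culture made up 2 genes higher and 1 lower of 9 (22.2% and 11.1%), against 8.86% and 8.93% of all genes. In the mosaic cultures the count was 2 without day 0 replicate 2 or 3, 3 without day 4 replicate 1 or 3, and 4 without day 4 replicate 2.

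**Figure D1:**
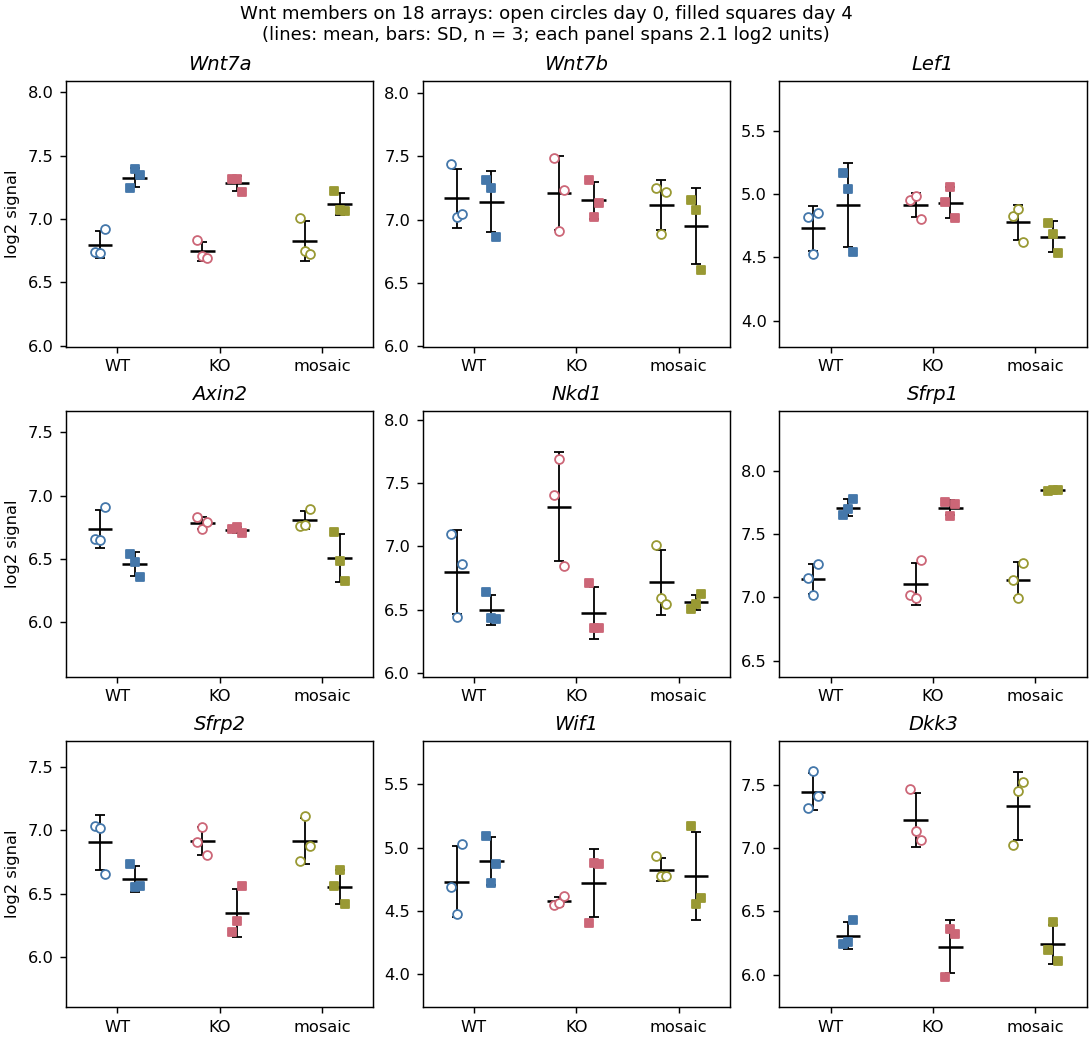
Log2 signal of the 9 measured genes on each of 18 arrays, for wild type (WT), knockout (KO) and mosaic cultures at day 0 (open circles) and day 4 (filled squares), with the group mean (line) and SD (bar, n = 3). In the panels of Wnt7a, Sfrp1 and Dkk3 the squares lie wholly to one side of the circles in each kind of culture, with all 9 Wnt7a values of day 4 at 7.07 to 7.39 and all 9 of day 0 at 6.69 to 7.01.

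The ligand Wnt7a, known in the forebrain for its roles in progenitors and in blood vessel growth, rose with differentiation in every kind of culture. In wild type cultures its log2 signal was 6.74, 6.73 and 6.92 on the day 0 arrays and 7.24, 7.39 and 7.35 on the day 4 arrays. The knockout arrays read 6.83, 6.71 and 6.69 at day 0 and 7.32, 7.32 and 7.22 at day 4. Mosaic arrays read 7.01, 6.75 and 6.73 at day 0 and 7.22, 7.07 and 7.07 at day 4. The days did not overlap in any of the 3, and the mosaic arrays of day 4 were the lowest of that day apart from replicate 1, which was just above the lowest knockout array. The log2 fold change was 0.53 ± 0.09 (SE, 1.44-fold) in wild type, 0.54 ± 0.09 (1.45-fold) in knockout and 0.29 ± 0.09 (1.22-fold) in mosaic cultures (limma, adjusted p = 0.000324, 0.000282 and 0.0255). The mosaic call was lost without day 0 replicate 2 (0.25, adjusted p = 0.102), day 0 replicate 3 (0.24, adjusted p = 0.106) or day 4 replicate 1 (0.24, adjusted p = 0.0989), and was kept without day 4 replicate 2 or 3 (0.32 each). It was also lost in a fit on the mosaic arrays alone (adjusted p = 0.112).

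Its close relative Wnt7b, which can signal through the same receptors, did not pass in any kind of culture. Log2 signal over the 9 arrays of day 0 ran from 6.89 to 7.49 with a median of 7.22, and over those of day 4 from 6.60 to 7.32 with a median of 7.13. The days overlapped in all 3 kinds of culture. Log2 fold changes were -0.02 in wild type (95% interval -0.40 to 0.35), -0.06 in knockout (-0.43 to 0.32) and -0.17 in mosaic cultures (-0.55 to 0.21), with adjusted p of 0.929, 0.869 and 0.557. The mosaic value was -0.24 without day 4 replicate 2 and 0.00 without day 4 replicate 3.

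Lef1, a transcription factor that binds beta-catenin and is itself a Wnt target, was dim on these arrays, at the 47.9th percentile of all probe sets on average. No detection call was at hand, so its values may lie near background. Day 0 arrays ran from 4.52 to 4.99 (median 4.83) and day 4 arrays from 4.53 to 5.17 (median 4.81), and the days overlapped in each kind of culture. The log2 fold changes were 0.19 ± 0.14 for wild type, 0.02 ± 0.14 for knockout and -0.11 ± 0.14 for mosaic cultures (adjusted p = 0.324, 0.944 and 0.629). The mosaic value was -0.12 without day 4 replicate 2 and -0.05 without day 4 replicate 3. Without wild type day 4 replicate 3, which was the lowest of its group at 4.54, the wild type change was 0.37 and passed (adjusted p = 0.0313).

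Tcf and Lef proteins recognise letters such as CTTTGAA or CTTTGAT. The 250 bases before the annotated starts of the set were therefore read from RefSeq windows (GRCm38.p6) for these letters on both strands. Other 7-letter forms of the site were not searched. The table held 11 windows, for Wnt7a, Lef1, Tcf7, Axin2, Nkd1, Sfrp2 and Wif1. None of them held the letters, against 7.48% of 32851 windows of that length. Only 3 of the 11 lay wholly before the gene as RefSeq draws it. Those of Axin2, Nkd1 and Sfrp2 lay inside the gene, so the bases before the RefSeq start of these genes were not searched. No window of Tcf7 lay wholly before its gene either. The 5-letter core CTTTG or its reverse complement CAAAG, which the longer motif contains, was in 5 of the 11 windows, 4 of Lef1 and 1 of Wif1, against 48.6% of all. Windows of Lef1 overlap in part and share a core match, so these come from 2 of the 7 genes. Wnt7a, Lef1 and Wif1 had a window that lay wholly before the gene, and these 3 are printed 5′ to 3′ on the gene's strand, with the core in capitals, to set the ligand that rose beside 2 genes of the set that were not called.
Wnt7a, chr6:91411354-91411603, minus strand: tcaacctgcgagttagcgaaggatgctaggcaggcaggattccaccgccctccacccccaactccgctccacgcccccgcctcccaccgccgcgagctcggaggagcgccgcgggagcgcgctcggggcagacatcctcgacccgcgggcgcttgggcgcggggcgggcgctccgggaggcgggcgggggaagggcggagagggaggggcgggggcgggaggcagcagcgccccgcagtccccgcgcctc
Lef1, chr3:131110047-131110296, plus strand: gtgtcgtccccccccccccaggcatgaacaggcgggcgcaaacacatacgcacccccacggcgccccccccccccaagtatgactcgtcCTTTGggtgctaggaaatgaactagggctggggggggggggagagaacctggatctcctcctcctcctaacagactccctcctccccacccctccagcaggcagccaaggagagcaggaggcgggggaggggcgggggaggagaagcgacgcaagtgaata
Wif1, chr10:121033754-121034003, plus strand: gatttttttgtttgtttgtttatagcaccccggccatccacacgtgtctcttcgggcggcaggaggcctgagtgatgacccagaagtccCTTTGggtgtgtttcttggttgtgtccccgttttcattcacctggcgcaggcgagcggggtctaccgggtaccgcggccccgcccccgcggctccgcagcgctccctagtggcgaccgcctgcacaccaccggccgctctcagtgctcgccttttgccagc
The Wnt7a window was 77.6% G and C and had no core, while those of Lef1 (66.4%) and Wif1 (62.8%) had 1 each, in both cases with its first base 161 bases before the start. Over all windows the median share of G and C was 52.4%, with quartiles of 45.2% and 61.2%. Such matches describe letters, and binding was not measured.

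Axin2, which scaffolds the complex that destroys beta-catenin and is a widely used readout of canonical Wnt signalling, showed the smallest called changes of the set in wild type cultures. Wild type arrays read 6.66, 6.65 and 6.91 at day 0 and 6.54, 6.48 and 6.36 at day 4. Knockout arrays read 6.83, 6.74 and 6.79 and then 6.73, 6.75 and 6.71. In the mosaic they were 6.76, 6.77 and 6.89 at day 0 and 6.71, 6.48 and 6.33 at day 4. Wild type and mosaic arrays did not overlap between the days, though the mosaic gap was narrow, and knockout arrays overlapped. Axin2 fell by 0.28 ± 0.10 on the log2 scale in wild type (1.21-fold) and by 0.30 ± 0.10 in mosaic cultures (1.23-fold), and the knockout value was -0.06 ± 0.10 (limma, adjusted p = 0.0393, 0.034 and 0.741).

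Both Axin2 calls lay near the threshold. In wild type the call was lost after quantile normalization (-0.18, adjusted p = 0.177), in a fit on those 2 groups alone (adjusted p = 0.0752), and without day 0 replicate 3 (-0.19, adjusted p = 0.181), day 4 replicate 2 (-0.29, adjusted p = 0.0702) or day 4 replicate 3 (-0.23, adjusted p = 0.132). In the mosaic it was lost under both other scalings (-0.27, adjusted p = 0.0586 by quantiles and -0.26, adjusted p = 0.0631 by a common median), with the mean of both probe sets (-0.19, adjusted p = 0.116) and in a fit on the mosaic arrays alone (adjusted p = 0.124). It was also lost without day 0 replicate 1, 2 or 3 (-0.32, -0.32 and -0.26, adjusted p = 0.0555, 0.0596 and 0.119) and without day 4 replicate 2 or 3 (-0.29 and -0.21, adjusted p = 0.0874 and 0.164).

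A second, dimmer probe set of Axin2 had the opposite direction in the wild type. Its arrays read 5.59, 5.40 and 5.51 at day 0 and 5.97, 6.10 and 5.99 at day 4, a log2 fold change of 0.52 ± 0.10 that passed (limma over all probe sets of 1 symbol, adjusted p = 0.00133). In knockout cultures it read 5.46, 5.84 and 5.74 and then 5.64, 5.75 and 5.87 (0.07 ± 0.10, adjusted p = 0.717). Mosaic arrays read 5.69, 5.83 and 5.86 and then 5.80, 5.70 and 5.61 (-0.09 ± 0.10, adjusted p = 0.634). Among the 20 named probe sets nearest to it by identifier, 19 were of genes on the strand opposite to Axin2, while 19 of the 20 nearest the brighter probe set were of genes on the Axin2 strand. No source used here states which strand either probe set reads. In the fit over all probe sets of 1 symbol, the brighter one did not pass in wild type (limma, adjusted p = 0.0504). With the mean of both in place of the brighter one, the wild type change was 0.12 and did not pass (adjusted p = 0.297), so these data settle no direction for Axin2 in wild type cultures.

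**Figure D2:**
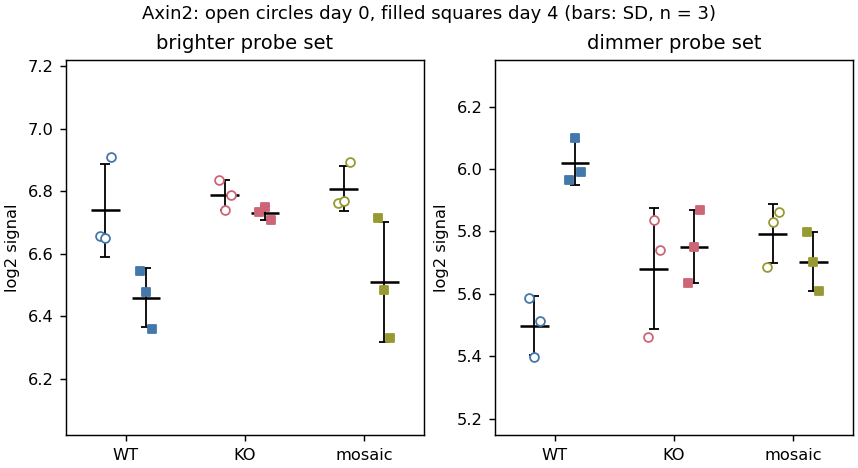
Log2 signal of the 2 Axin2 probe sets on each array of wild type (WT), knockout (KO) and mosaic cultures at day 0 (open circles) and day 4 (filled squares), with group mean (line) and SD (bar, n = 3); the axes differ in range. In wild type, the day 4 arrays of the brighter probe set (6.36 to 6.54) lie below day 0 (6.65 to 6.91), and those of the dimmer one (5.97 to 6.10) above it (5.40 to 5.59).

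Nkd1, a target that binds Dishevelled inside the cell and damps the signal, fell in knockout cultures. The knockout arrays read 7.41, 7.69 and 6.85 at day 0 and 6.71, 6.35 and 6.35 at day 4. Wild type arrays read 7.10, 6.44 and 6.86 at day 0 and 6.64, 6.44 and 6.43 at day 4. Mosaic arrays were 7.01, 6.59 and 6.55 and then 6.51, 6.55 and 6.62. At day 0 the spread was wide in every kind of culture, and 2 of the knockout arrays were the highest of all 18. Nkd1 fell by 0.84 ± 0.19 in knockout cultures (1.79-fold, adjusted p = 0.00344), and the changes were -0.30 ± 0.19 in wild type and -0.16 ± 0.19 in mosaic cultures (adjusted p = 0.249 and 0.624). The mosaic value was -0.15 and -0.19 without day 4 replicate 2 and 3. The knockout call was kept without any 1 array, with changes between -1.08 and -0.66.

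Sfrp1, a secreted protein with a Frizzled-like domain that binds Wnt proteins, rose in all 3 kinds of culture. Wild type arrays read 7.15, 7.02 and 7.26 at day 0 and 7.65, 7.70 and 7.78 at day 4. The knockout gave 7.02, 6.99 and 7.30 and then 7.75, 7.64 and 7.73, and the mosaic 7.14, 6.99 and 7.27 and then 7.84, 7.85 and 7.85. All 9 arrays of day 4 lay above all 9 of day 0, and the 3 mosaic arrays of day 4 were the highest. The log2 fold change was 0.56 ± 0.10 in wild type (1.48-fold), 0.60 ± 0.10 in knockout (1.52-fold) and 0.71 ± 0.10 in mosaic cultures (1.64-fold), with adjusted p of 0.000293, 0.000158 and 2.87e-05 in limma. Without mosaic day 4 replicate 2 or 3 the mosaic change stayed at 0.71.

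Its relative Sfrp2 fell in knockout and mosaic cultures. Knockout arrays read 6.91, 7.03 and 6.81 at day 0 and 6.19, 6.29 and 6.56 at day 4. Mosaic arrays read 6.75, 7.12 and 6.88 and then 6.56, 6.68 and 6.41, and neither of these overlapped between the days. Wild type arrays read 7.04, 7.02 and 6.66 and then 6.73, 6.55 and 6.56, and they overlapped through day 0 replicate 3. Sfrp2 fell by 0.57 ± 0.13 in knockout (1.48-fold, adjusted p = 0.00297) and by 0.36 ± 0.13 in mosaic cultures (1.29-fold, adjusted p = 0.0456), and the wild type change was -0.29 ± 0.13 (adjusted p = 0.0941). With the mean of its 2 probe sets the knockout change was -0.32, and the call was kept (adjusted p = 0.045). Without wild type day 0 replicate 3 the wild type change of the brighter probe set was -0.41 and passed (adjusted p = 0.0287). The mosaic call was lost under both other scalings (-0.34 and -0.32, adjusted p = 0.0668 and 0.0682), and without day 0 replicate 2 (-0.26, adjusted p = 0.202), day 0 replicate 3 (-0.38, adjusted p = 0.0769), day 4 replicate 1 (-0.37, adjusted p = 0.087) or day 4 replicate 3 (-0.29, adjusted p = 0.162), and kept without day 4 replicate 2 (-0.43). It was also lost with no filter (adjusted p = 0.0569), with array weights (-0.35, adjusted p = 0.0642), in a fit on the mosaic arrays alone (adjusted p = 0.0814) and with the mean of both probe sets (-0.29, adjusted p = 0.0725). A second, dim probe set of Sfrp2, with a mean of 4.13, was called in none of the 3 (0.15 for wild type, -0.08 for knockout and -0.22 for mosaic cultures, with adjusted p of 0.455, 0.796 and 0.353). All 20 named probe sets nearest to that one were of genes on the strand opposite to Sfrp2, and all 20 nearest the brighter one were of genes on its strand.

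Wif1, a secreted inhibitor that captures Wnt ligands, was dim (46.4th percentile on average) and was called in no kind of culture. Day 0 arrays ran from 4.47 to 5.03 with a median of 4.69, and day 4 arrays from 4.41 to 5.17 with a median of 4.87. The days overlapped throughout. Log2 fold changes were 0.16 (95% interval -0.20 to 0.53) in wild type, 0.14 (-0.22 to 0.51) in knockout and -0.05 (-0.41 to 0.31) in mosaic cultures. Without mosaic day 4 replicate 2 or 3 the last was 0.06 or 0.04.

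Dkk3, a secreted member of the Dickkopf family whose action on Wnt signalling varies with the cell, had the largest changes of the set. In wild type cultures it read 7.31, 7.61 and 7.41 at day 0 and 6.24, 6.26 and 6.43 at day 4. Knockout arrays gave 7.47, 7.13 and 7.07 and then 5.98, 6.36 and 6.32, and mosaic arrays 7.03, 7.45 and 7.52 and then 6.19, 6.41 and 6.11. All 9 arrays of day 4 lay below all 9 of day 0. It fell by 1.14 ± 0.15 in wild type (2.20-fold), by 1.0 ± 0.15 in knockout (2.0-fold) and by 1.09 ± 0.15 in mosaic cultures (2.14-fold), with adjusted p of 1.73e-05, 6.54e-05 and 2.53e-05 in limma. Without mosaic day 4 replicate 2 or 3 the mosaic change was -1.18 or -1.03. Dkk3 was the one gene of the set whose 6 group means spanned at least 1 on the log2 scale. The genes whose centred group means lay closest to its own were Gla, the lysosomal alpha-galactosidase, and Mthfd2, a mitochondrial enzyme of folate metabolism. The root mean square difference over the 6 groups was 0.04 and 0.05, and their log2 fold changes were -1.05, -0.98 and -1.07 for Gla and -1.10, -1.07 and -1.19 for Mthfd2 in wild type, knockout and mosaic cultures.

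**Figure D3:**
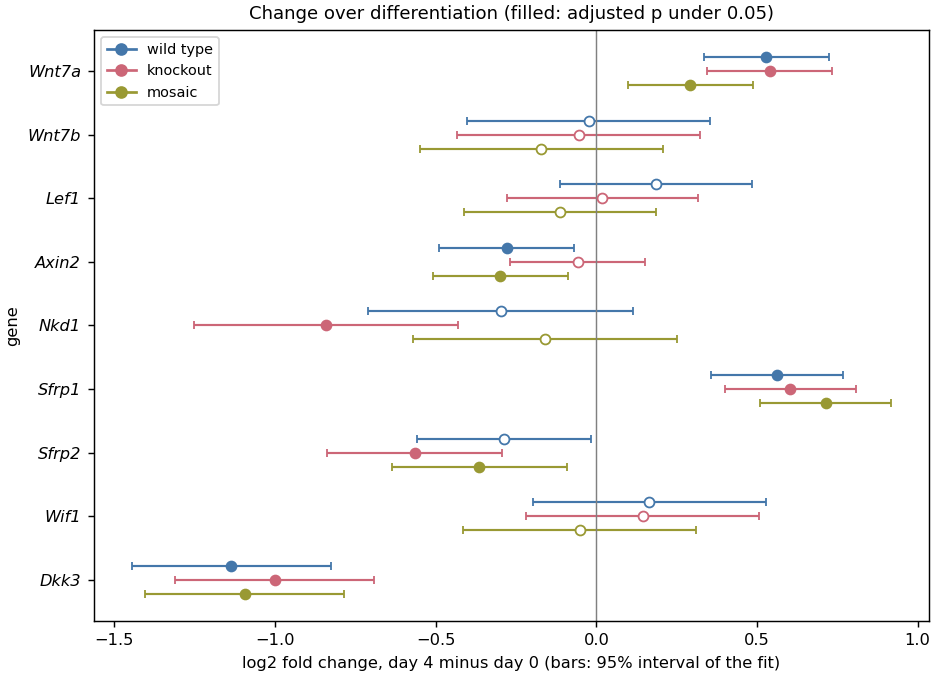
Log2 fold change from day 0 to day 4 for the 9 genes in wild type, knockout and mosaic cultures (bars: 95% interval of the fit; filled points: adjusted p under 0.05). The 3 points of Dkk3 lie between -1.14 and -1.0 and those of Sfrp1 between 0.56 and 0.71, while all intervals of Wnt7b, Lef1 and Wif1 cross 0.

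Between genotypes, none of the 9 genes was called on either day. The same held for all genes tested in limma: 0% of 19016 were called for knockout or mosaic against wild type and for mosaic against knockout, at day 0 and at day 4. At an unadjusted p under 0.05 the share over all genes was 3.61%, 4.3% and 4.24% in these 3 comparisons at day 0, and 12.7%, 15.9% and 6.07% at day 4. Of the 9 genes, 1, 0 and 1 were under that unadjusted limit at day 0 and 1 in each comparison at day 4. Other settings called a few genes at day 4, none of them in the pathway lists below. Quantile normalization gave 1 and the filter at the 50th percentile 2 that were lower in knockout than in wild type, and the robust variance trend gave 2 that were higher in mosaic than in wild type. These comparisons share arrays, so they are not independent of one another.

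At day 0 the gene under that limit was Nkd1. Its level in knockout lay above wild type by a log2 difference of 0.52 (95% interval 0.11 to 0.93, unadjusted p = 0.017, adjusted p = 1) and above the mosaic, with a mosaic minus knockout difference of -0.60 (-1.01 to -0.19, unadjusted p = 0.00713, adjusted p = 1), and the arrays overlapped in both. Without knockout day 0 replicate 2, the highest array, the difference from wild type was 0.33, and without wild type day 0 replicate 2 it was 0.34. Arrays of 2 genotypes did not overlap at day 0 for 0, 0 and 1 of the 9 genes (knockout and mosaic against wild type, mosaic against knockout), beside 9.2%, 11.3% and 10% of all genes. The other 8 genes differed from wild type at day 0 by -0.22 to 0.19 in knockout and by -0.11 to 0.10 in mosaic cultures.

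At day 4, Axin2 was higher in knockout than in wild type arrays without overlap, by 0.27 (95% interval 0.06 to 0.48, unadjusted p = 0.0146, adjusted p = 0.295). The dimmer Axin2 probe set differed by -0.27 in that comparison (adjusted p = 0.341), and the mean of both by 0.00. Between mosaic and wild type arrays of day 4, the dimmer probe sets of Axin2 and Sfrp2 differed by -0.32 and -0.41. Neither passed (limma, adjusted p = 0.216 and 0.235), and the brighter ones differed by 0.05 and -0.06. Mosaic arrays differed from knockout in Axin2 by -0.22 (-0.43 to -0.01, adjusted p = 0.797), and by -0.13 without mosaic day 4 replicate 3. Wnt7a was lower in mosaic than in wild type arrays, without overlap, by -0.21 (-0.40 to -0.01, unadjusted p = 0.038, adjusted p = 0.29), and by -0.18 without mosaic day 4 replicate 2 or 3. Sfrp1 was higher in all 3 mosaic arrays than in those of both other genotypes, by 0.14 (-0.06 to 0.34) against each, and did not pass. It was 0.14 without mosaic day 4 replicate 2 or 3 too. Arrays of 2 genotypes did not overlap at day 4 for 1, 2 and 2 of the 9 genes (in the same order), beside 16.8%, 18.2% and 8.68% of all genes.

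**Figure D4:**
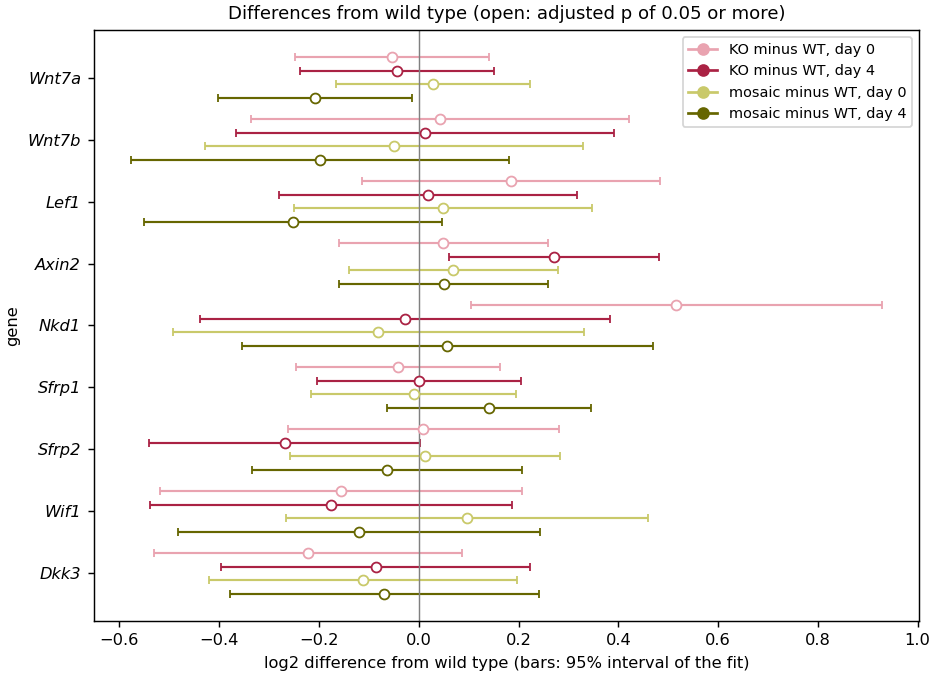
Log2 difference from wild type of the 9 genes in knockout (KO) and mosaic cultures at day 0 and day 4 (bars: 95% interval of the fit; open points: adjusted p of 0.05 or more). All 36 points are open, and the farthest from 0 is Nkd1 in knockout at day 0, at 0.52.

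How far the response to differentiation differed between genotypes was tested as a difference of the log2 fold changes. None of the 9 genes passed, and 0% of all genes tested were called in any of the 3 comparisons. Quantile normalization and the filter at the 50th percentile each called 1 gene for knockout minus wild type, and the robust variance trend 1 for mosaic minus wild type, none in the pathway lists below. At an unadjusted p under 0.05 there were 0, 0 and 1 of the 9, beside 9.51%, 12.4% and 4.29% of all genes, for knockout minus wild type, mosaic minus wild type and mosaic minus knockout. The 1 was Nkd1, with a mosaic minus knockout difference of 0.68 (95% interval 0.10 to 1.26, adjusted p = 0.999), and for knockout minus wild type its difference was -0.54 (-1.13 to 0.04, adjusted p = 0.549). Axin2, called in wild type and not in knockout cultures, had a difference of 0.22 (-0.08 to 0.52, adjusted p = 0.632). It turned to -0.11 with the mean of both probe sets (adjusted p = 0.796) and was -0.45 for the dimmer one (adjusted p = 0.406). For mosaic minus wild type the difference was -0.02 for the brighter Axin2 probe set. For the dimmer one it was -0.61 and did not pass either (limma, adjusted p = 0.26). Sfrp2, called in knockout and not in wild type cultures, had a knockout minus wild type difference of -0.28 (-0.66 to 0.11, adjusted p = 0.642). For Wnt7a the mosaic minus wild type difference was -0.24 (-0.51 to 0.04, adjusted p = 0.463), and it was -0.21 without mosaic day 4 replicate 2 or 3. Without them in turn the Nkd1 difference from knockout was 0.69 or 0.65. The genes that were called in some kinds of culture and not in others are therefore not shown to respond differently.

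The wider pathway was read from 6 lists of ligands, receptors, antagonists, cytoplasmic components, Tcf and Lef factors with co-factors, and target genes, which held 126 genes and overlap in part. Of these, 121 were tested, the 9 genes above included. In wild type cultures 24 rose and 22 fell (38.0%, beside 33.6% of all genes), in knockout cultures 15 rose and 25 fell (33.1%, beside 27.4%), and in mosaic cultures 18 rose and 24 fell (34.7%, beside 26.2%). The median log2 fold change was 0.03, -0.02 and -0.05. None was called in any of the 6 comparisons between genotypes or the 3 differences of response. After quantile normalization the share of higher calls over all genes in wild type was 61.5% in place of 51.4%, so the balance of directions there depends on the scaling. Without mosaic day 4 replicate 2 or 3, 34 or 37 pathway genes were called in the mosaic, and of the mosaic calls of named genes outside the set that of Tnks2 ended, without replicate 2.

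**Figure D5:**
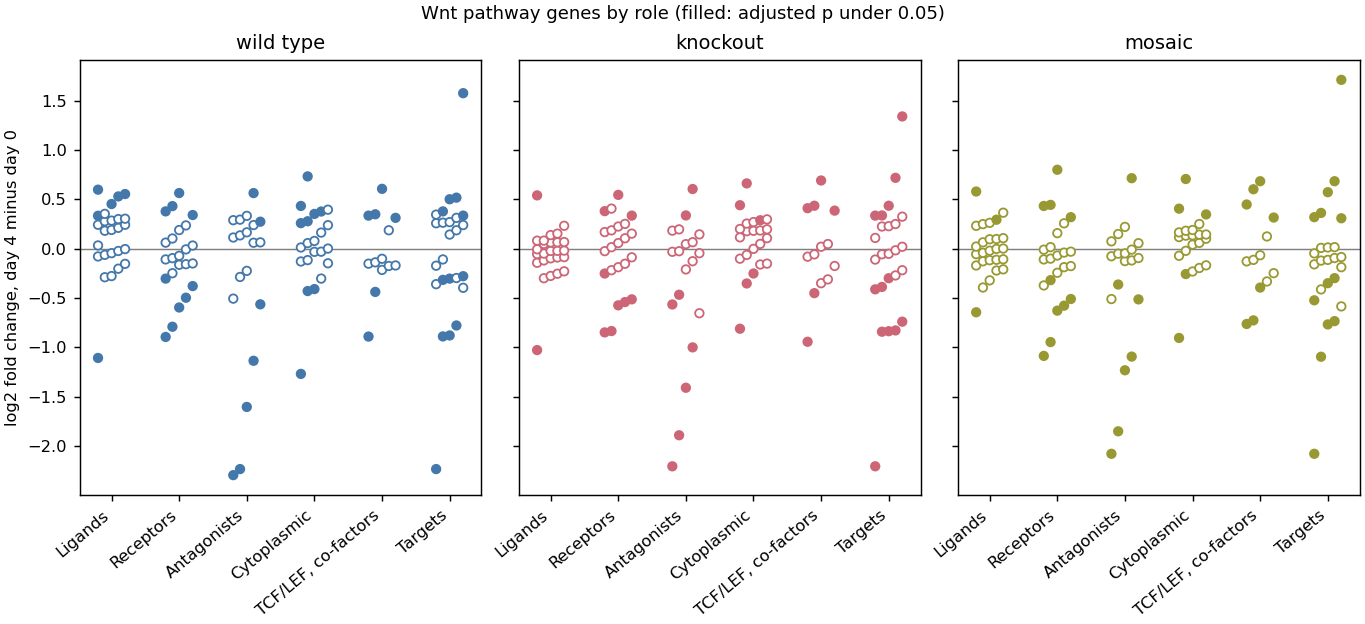
Log2 fold change from day 0 to day 4 of each tested pathway gene by role in wild type, knockout and mosaic cultures (filled: adjusted p under 0.05); a gene in 2 lists appears in both. The lowest points, near -2, are Apcdd1 in the antagonist and target columns and Sfrp4 in the antagonist column, and the highest, at 1.34 to 1.71, is Prickle1 among the targets.

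Among the 26 ligand genes, which include the secretion factor Wls, 5 rose and 1 fell in wild type, 1 and 1 in knockout, and 2 and 1 in mosaic cultures. These were 23.1%, 7.69% and 11.5% of the list, below the share of all genes in each. Besides Wnt7a, the gene called in all 3 was Wls, which carries Wnt proteins to the cell surface. It fell, with log2 fold changes of -1.11 ± 0.15 for wild type, -1.03 for knockout and -0.65 for mosaic cultures. Chosen after their values were seen, the other ligands that rose in wild type were Wnt1, Wnt6, Wnt8b and Wnt9b (0.45, 0.55, 0.33 and 0.60), at mean array percentiles of 47.8, 51.7, 30.6 and 60.3. Wnt1 and Wnt8b were thus as dim as Lef1 or dimmer, and their values too may lie near background. Their knockout minus wild type differences of response were -0.46, -0.64, -0.43 and -0.46 and did not pass (adjusted p = 0.484, 0.317, 0.435 and 0.559). The Wnt1 call was lost on leaving out replicate 2 of day 0 or replicate 1 or 2 of day 4 in wild type (adjusted p = 0.101, 0.0725 and 0.0586), that of Wnt8b without day 0 replicate 3 or day 4 replicate 1 (0.101 and 0.0704), and that of Wnt9b without day 0 replicate 2 (0.38, adjusted p = 0.0721) or day 4 replicate 3 (adjusted p = 0.0564).

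Of 23 receptors and surface regulators, 4 rose and 6 fell in wild type, 3 and 6 in knockout, and 4 and 6 in mosaic cultures. These were 43.5%, 39.1% and 43.5% of the list, beside 33.6%, 27.4% and 26.2% of all genes. The wild type counts were 5 and 4 by quantiles and 2 and 6 with a common median, and the mosaic counts 5 and 5 with the latter, so the balance of the list turned with the scaling. The Frizzled receptors Fzd7, Fzd9 and Fzd5 fell in all 3. In this order of wild type, knockout and mosaic, which holds for all values that follow, the log2 fold changes were -0.90, -0.85 and -0.95 for Fzd7, -0.60, -0.57 and -1.09 for Fzd9, and -0.79, -0.84 and -0.63 for Fzd5. Lgr4, a receptor for R-spondins, which strengthen Wnt signalling, rose by 0.56, 0.54 and 0.80. Ptk7, a co-receptor, fell (-0.50, -0.25 and -0.58), and its knockout call was lost under both other scalings (adjusted p = 0.0801 and 0.0848) and without any 1 of the 6 knockout arrays (adjusted p = 0.0583 to 0.142).

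Among 19 secreted or surface antagonists, 2 rose and 5 fell in wild type, 2 and 6 in knockout, and 1 and 6 in mosaic cultures. These were 36.8%, 42.1% and 36.8% of the list, beside 33.6%, 27.4% and 26.2% of all genes. Apcdd1, a membrane inhibitor of Wnt signalling that is also a target, had log2 signals of 9.45, 9.19 and 9.27 in wild type at day 0 and 7.41, 7.33 and 6.47 at day 4. Its log2 fold changes were -2.23 ± 0.23 (4.70-fold lower), -2.21 and -2.08. The Wnt-binding Sfrp4 fell in each as well (-2.30 ± 0.19, -1.89 and -1.85). Its 9 signals of day 4, at 4.00 to 4.50, lay below every array median and may be near background, so the size of its change is not settled. Draxin, an axon guidance protein that can inhibit Wnt signalling, fell too (-1.60 ± 0.09, 3.04-fold lower, then -1.41 and -1.23). With Dkk3 and Sfrp1 these made up the 5 antagonists of largest mean change among those called in all 3 kinds of culture, 4 of them lower and Sfrp1 higher.

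For 22 tested cytoplasmic components the counts were 6 up and 3 down in wild type, 3 and 3 in knockout, and 3 and 2 in mosaic cultures. These were 40.9%, 27.3% and 22.7% of the list, beside 33.6%, 27.4% and 26.2% of all genes. In wild type the counts were 9 and 3 by quantiles and 4 and 3 with a common median. Dact1, which binds Dishevelled, fell (-1.27 ± 0.13, -0.81 and -0.91). Ctnnbip1, which keeps beta-catenin from binding Tcf proteins, rose by 0.73, 0.66 and 0.71, and Dvl3, a Dishevelled protein, by 0.35, 0.44 and 0.40. Tnks2, a tankyrase that marks axins for degradation, fell (-0.43, -0.35 and -0.26). The mosaic call of Tnks2 was lost with a common array median (adjusted p = 0.0957) and without day 0 replicate 1 or 2 or day 4 replicate 1 or 2 (adjusted p = 0.0616, 0.0952, 0.124 and 0.0554).

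Of 13 tested Tcf and Lef factors and co-factors, 4 rose and 2 fell in wild type and in knockout, and 4 and 3 in mosaic cultures. These were 46.2%, 46.2% and 53.8% of the list, beside 33.6%, 27.4% and 26.2% of all genes. The co-repressor Tle1 fell (-0.89, -0.94 and -0.73), as did its relative Tle3 (-0.44, -0.45 and -0.76). Pygo1, a co-activator, rose by 0.61, 0.69 and 0.60. Tcf7l2, the family member known in the oligodendrocyte lineage, rose by 0.33, 0.43 and 0.68, and Tcf7l1 by 0.35, 0.41 and 0.45. The wild type calls of Tle3 and Tcf7l2 each ended under 1 other scaling (quantile, adjusted p = 0.0536, and common median, adjusted p = 0.0934). The Tle3 call ended without wild type day 0 replicate 2 (adjusted p = 0.0732) and, in knockout, without day 0 replicate 1 or 3 or day 4 replicate 1 (adjusted p = 0.058, 0.0575 and 0.0693). The wild type call of Tcf7l2 ended without any of its arrays but day 4 replicate 1 (adjusted p = 0.0686 to 0.12) and its knockout call without day 0 replicate 2 (adjusted p = 0.0778), and that of Tcf7l1 on leaving out, in wild type, replicate 1 of day 0 or replicate 2 of day 4 (adjusted p = 0.067 and 0.0591).

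Among 25 tested target genes, 5 rose and 7 fell in wild type, 5 and 8 in knockout, and 6 and 7 in mosaic cultures. The list thus had no single direction. These were 48%, 52% and 52% of the list, beside 33.6%, 27.4% and 26.2% of all genes. In wild type the counts were 4 and 5 by quantiles and 3 and 7 with a common median. Prickle1, a planar cell polarity protein, read 6.06, 6.17 and 5.89 in wild type at day 0 and 7.80, 7.62 and 7.43 at day 4, and it rose by 1.57 ± 0.13 (2.98-fold), 1.34 and 1.71. Tnfrsf19, a receptor of the tumour necrosis factor family, fell (-0.88, -0.74 and -0.73), as did Cd44, an adhesion receptor (-0.78, -0.39 and -0.77). Ccnd1, the cyclin of early cell cycle progression, fell with a wider error (-0.89 ± 0.28, -0.84 and -1.10). The Ccnd1 call ended in wild type without day 0 replicate 2 or day 4 replicate 1 (adjusted p = 0.0879 and 0.0707) and in knockout without day 0 replicate 1 or 2 or day 4 replicate 1 or 2 (adjusted p = 0.0529 to 0.186, with -0.51 without day 0 replicate 2). That of Cd44 ended in knockout without day 0 replicate 1 or 2 or day 4 replicate 2 (adjusted p = 0.0809, 0.0529 and 0.0755).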

How the data were processed

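Arrays of biotin-labelled total RNA were used, extracted with Trizol and silica columns per the labels' protocols. The deposited values are normalized log2 signals per probe set, a scale read from the values (0.722 to 13.97); no source used here states the authors' normalization, background correction or log base, and no scanner files were used. Of 41345 probe sets, 23521 had 1 symbol in the platform annotation, 1814 several and 16010 none. The former were used, 23328 of them matched by Entrez identifier to RefSeq (GRCm38.p6), with 0 symbols updated.

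Each gene took its probe set of highest mean, and genes above the array's 25th percentile on at least 3 arrays were kept (19016 of 22180). A model with 6 group means was fitted to 18 arrays (R 4.3.3, limma 3.58.1, statmod 1.5.0; lmFit and eBayes, 12 residual and 4.36 prior degrees of freedom), with two-sided tests in 12 contrasts and Benjamini-Hochberg adjustment over all genes. The model was tried on simulated data for 3 of the 12 contrasts, and how well it found small changes is not given here. Errors are standard errors of the fit, and the 3 arrays per group limit the precision.

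The genes, lists and tests were chosen with earlier results of these data known. All genes of the set are named, with up to 5 genes per pathway list that were called in 1 direction in all 3 kinds of culture, those of largest mean change. For a gene whose group means span at least 1, the 2 genes with the nearest centred group means are named. Replicate numbers were tried as a block, and the closing section gives this with the other alternatives.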

Additional observations from a re-analysis of the deposited data

How the results depend on the processing

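Alternative settings rescaled the arrays (by quantiles or to a common median), changed the filter (none, or the 50th percentile), averaged a gene's probe sets, or changed the fit (replicate block, robust variance trend, array weights, only the groups compared). A stricter adjusted p of 0.01 and the omission of each array in turn were also tried. The calls of Wnt7a, Sfrp1 and Dkk3 in wild type and knockout, of Sfrp1 and Dkk3 in the mosaic, and of Nkd1 and Sfrp2 in knockout cultures were kept under all of these, the last at -0.32 with the mean of probe sets. The genes of the set called in the mosaic numbered 5, and 3 by quantiles, a common median or the mean of probe sets, 2 in the groups alone or at 0.01, and 2 to 4 without 1 array. Without 1 array there were 3 to 4 calls in wild type and 5 in knockout. Pathway calls in wild type went from 46 to 26 at an adjusted p under 0.01 and in knockout from 40 to 26, and without 1 array they were 35 to 38, 31 to 35 and, in the mosaic, 32 to 37. The wild type change of Axin2 reversed to 0.12 with the mean of its probe sets; its dimmer probe set rose. Sign changes with no call on either side numbered 125 of 1890 values, 98 of them on leaving out 1 array, for changes of at most 0.22.

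Same-numbered arrays of different groups shared at most a weak deviation. The correlation of their deviations from the group means was -0.146 to 0.165 (median 0.03, 4 of 45 above 0.1). For different numbers the median was -0.01, with 4 of 90 above 0.1. For the 9 pairs across the days of 1 genotype it was 0.02 to 0.16 (median 0.06, 2 above 0.1). Of the 3 replicate numbers, an array's own had the highest mean correlation with the arrays of other groups in 14 of 18 arrays. The main fit did not take the numbers to pair the samples, and no label states such a pairing. The block tried was shared by all 6 groups, and a pairing of the days within each genotype was not tested. With the replicate block the genes of the set called were 4, 5 and 5 in wild type, knockout and mosaic cultures, and the pathway genes called 46, 41 and 41. Signal over background could not be read, which limits what can be said of dim genes (Lef1, Wif1, Wnt1, Wnt8b, and Sfrp4 at day 4).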
